A study of Mus musculus with 6 samples.

Results

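Immediate early genes named Egr, Ier or Nr4a were followed in inflamed mouse skin. The members were the rows of the deposited table whose symbol was Egr1, Egr2, Egr3, Ier2, Ier3, Ier5, Nr4a1, Nr4a2 or Nr4a3, early genes that do not encode AP-1 subunits. All 9 were found among the 18824 genes of the table. RNA-seq was carried out on skin of C57BL/6j mice, with 3 libraries titled CCR3 and 3 titled VEH, numbered 1, 2 and 4 in each. By the series title both groups belong to the MC903 model, where calcipotriol, which acts on the vitamin D receptor, is spread on the skin to bring on a dermatitis. The CCR3 mice received an inhibitor and the VEH mice vehicle. The inhibitor is SB328437, a CCR3 antagonist, in the series text but SC144, a gp130 inhibitor, in the treatment label of the libraries, so the groups are called by their titles here. Age, sex, dose and time after treatment are not stated in the labels, and skin without MC903 was not analysed here.

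Immediate early genes are transcribed within minutes of a stimulus, without the need for new protein. Kinase cascades such as the ERK pathway act on factors already present at the promoter, among them serum response factor and its Elk partners, and CREB. The Egr proteins are zinc-finger transcription factors that bind GC-rich sites. The Nr4a proteins are orphan nuclear receptors whose activity is set mainly by how much of them is made. Ier2 and Ier5 encode related proteins, while Ier3 is unrelated to them and shares only the name for an early response. In skin such genes respond to growth factors, cytokines, ultraviolet light, wounding and the handling of tissue.

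The values were FPKM (fragment counts set relative to transcript length and library size), and the depth of each library is unknown. FPKM summed to between 517764 and 537264 in the CCR3 libraries and between 533247 and 553305 in the VEH libraries. Keratinocyte markers were present in both groups, at a summed level of 6125 to 9621 FPKM in CCR3, against 6332 to 7288 FPKM in VEH for 8 genes. Groups were compared with limma on log2(FPKM + 1) over 13063 genes that reached 1 FPKM in at least 3 libraries, with Benjamini-Hochberg adjustment over these genes and a threshold of 0.05. A log2 fold change below is CCR3 minus VEH on that scale, with its standard error. The labels do not say that libraries of a group came from separate mice, so the p-values measure the spread between these libraries. In whole skin, fewer cells of a type and less RNA per cell cannot be told apart.

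All 9 members passed the filter on low values, had a negative log2 fold change, and 5 were lower in CCR3 by limma: Egr1, Egr2, Ier3, Ier5 and Nr4a2. Over all tested genes 3.74% were called, 2.37% lower and 1.36% higher. The log2 fold change was negative in 7812 of the 13063 tested genes. No member was called higher by limma, and none was higher at an unadjusted p under 0.05. At that unadjusted p 1973 of the 13063 tested genes were lower and 1049 higher. The 4 members that did not pass were Egr3, Ier2, Nr4a1 and Nr4a3. In 8 of the 9, Egr3 being the exception, every CCR3 library lay below every VEH library, as was so for 18.3% of all tested genes, while 10.4% had every CCR3 library above every VEH library. The median log2 fold change of the members was -0.49, beside -0.04 over all tested genes. Among all tested genes 310 were lower and 178 higher, and these counts were 261 and 230 with median-centred values and 173 and 158 with libraries scaled to the same sum. The same number of members, 5, was lower under both of these scalings.

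**Figure D1:**
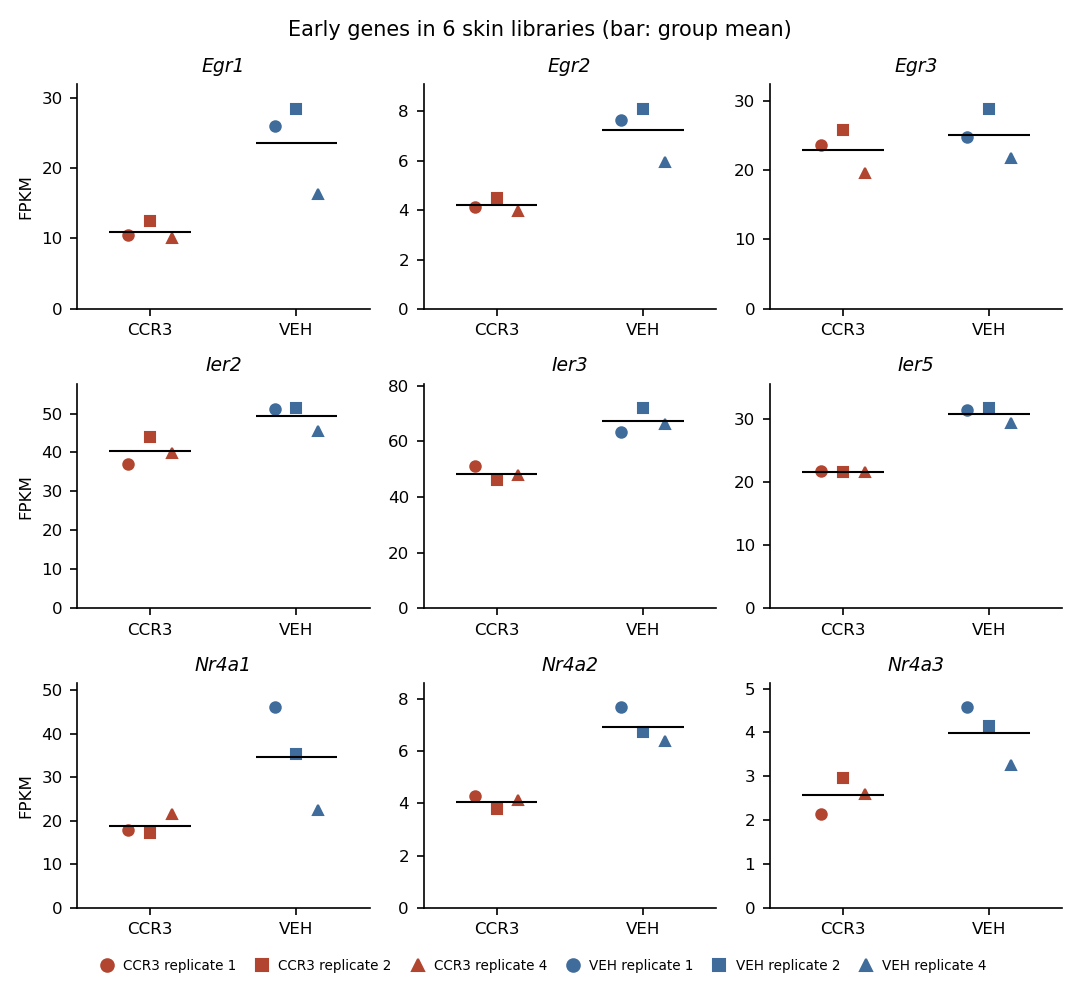
FPKM of each early gene in the CCR3 (left) and VEH (right) libraries, with a symbol for each replicate number and a bar at the group mean. The CCR3 points lie below the VEH points in every panel but that of Egr3, and VEH replicate 4 is the lowest VEH library in every panel but that of Ier3.

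Among the Egr genes, Egr1 and Egr2 fell and Egr3 did not pass. Egr1, the prototype of the family and a factor that growth factors and injury switch on in many cell types, stood at 10.42, 12.41 and 10.07 FPKM in CCR3 replicates 1, 2 and 4. In VEH replicates 1, 2 and 4 it stood at 26, 28.45 and 16.26 FPKM. The groups did not overlap, and VEH replicate 4 was closest to the CCR3 libraries. The Egr1 means were 11.0 ± 1.26 FPKM for CCR3 and 23.6 ± 6.45 FPKM for VEH (SD over 3 libraries each). Its log2 fold change of -1.01 ± 0.19 was the furthest from 0 among the members (limma adjusted p = 0.0311).

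Egr2, also known as Krox20, is needed for myelination by Schwann cells and is induced in T cells and macrophages. It was read at 4.11, 4.5 and 3.98 FPKM in CCR3, against 7.66, 8.12 and 5.97 FPKM in VEH. The CCR3 libraries lay close together and below each VEH library. Its log2 fold change was -0.66 ± 0.11 (limma adjusted p = 0.0212), and its CCR3 mean was 57.9% of the VEH mean. Egr3, which like Egr2 is induced by antigen receptor signals in T cells, was measured at 23.54, 25.7 and 19.5 FPKM in CCR3, against 24.76, 28.85 and 21.7 FPKM in VEH. The groups overlapped, and replicate 4 was the lowest library in each. The log2 fold change of Egr3 was -0.13 ± 0.13, with a 95% interval from -0.41 to 0.16 (limma adjusted p = 0.571). The interval reaches neither the estimate for Egr1 nor that for Egr2. Egr4, the remaining gene of the family, lay under the filter, at 0 FPKM in 5 libraries and 0.02 FPKM in CCR3 replicate 4.

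Promoter windows from RefSeq (GRCm38.p6, from 250 bases before to 50 after an annotated start) were at hand for 6 of the 9 members. No window was at hand for Egr1, Egr3 or Ier2, so their sites are unknown here. The windows were searched on both strands for sites linked with early genes. They are shown to let the letters near the starts be read beside the values. The authors' genome build is not given in the sources used here, so these coordinates belong to RefSeq and not to the FPKM table. Egr2 has 5 windows, and 4 of them hold a CArG box, the site of serum response factor. Of the 32851 windows of the same length in the table, 1.63% hold one. In 3 of the 4 Egr2 windows, which overlap, it is the same box, so the windows are not separate sites. In these 3 windows the CArG box lies between 2 copies, 1 on each strand, of TGACG, the core of a cyclic AMP response element. TGACG occurs in 20.8% of all windows. The stretch common to these 3 windows, on the plus strand at chr10:67537748-67537828, is given with the CArG box and both TGACG copies in capitals, the second of them on the opposite strand.
Egr2: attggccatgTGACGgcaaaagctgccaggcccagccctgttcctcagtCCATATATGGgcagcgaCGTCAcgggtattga

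Of the Ier genes, Ier3 and Ier5 fell and Ier2 did not pass. Ier3, also called IEX-1, encodes a small stress-induced protein that acts on cell survival and is a target of NF-kB. It was at 51.13, 46.06 and 47.93 FPKM in CCR3, against 63.25, 72 and 66.39 FPKM in VEH, and the groups lay well apart. The log2 fold change was -0.47 ± 0.07 (limma adjusted p = 0.0169). Ier5, whose product takes part in the heat shock response through the factor HSF1, had the smallest adjusted p of the members. It was at 21.8, 21.52 and 21.65 FPKM in CCR3, against 31.36, 31.72 and 29.35 FPKM in VEH. The CCR3 libraries were nearly alike, and the means were 21.7 ± 0.140 FPKM for CCR3 and 30.8 ± 1.28 FPKM for VEH (SD over 3 libraries each). The log2 fold change was -0.49 ± 0.06 (limma adjusted p = 0.00795).

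Ier2, which encodes a small nuclear protein related in its N-terminal part to that of Ier5, stood at 37.17, 43.99 and 39.97 FPKM in CCR3, against 51.24, 51.42 and 45.61 FPKM in VEH. CCR3 replicate 2 and VEH replicate 4 came close to each other without overlap. Its log2 fold change was -0.29 ± 0.08, with a 95% interval from -0.48 to -0.10 (limma adjusted p = 0.0961). Ier5l, a relative of Ier5 outside the members, was at 5.34 FPKM in CCR3, against 7.19 FPKM in VEH, also short of the threshold (limma adjusted p = 0.0762). The window of Ier3 holds an NF-kB site, as do 8.46% of all windows, and that site is shown in capitals at chr17:35821611-35821640, plus strand. The window of Ier5 held no match to any site as searched. For the TATA box only the exact letters TATAAA were searched, and this window holds TATATAAG, which differs from them.
Ier3: tgcgaagggcGGAGTTCCCCccggcccggc

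Of the Nr4a genes, Nr4a2 fell, and Nr4a1 and Nr4a3 did not pass although no library of one group reached the other. Nr4a2, or Nurr1, best known for its part in dopamine neurons, is also an early gene in immune and connective tissue cells. It stood at 4.28, 3.78 and 4.11 FPKM in CCR3, against 7.67, 6.72 and 6.37 FPKM in VEH. The log2 fold change was -0.65 ± 0.09 (limma adjusted p = 0.0107), and the CCR3 mean was 58.6% of that in VEH. Nr4a1, or Nur77, is induced by antigen receptor signals and restrains inflammatory genes in macrophages. It was at 17.95, 17.21 and 21.53 FPKM in CCR3, against 46.03, 35.35 and 22.57 FPKM in VEH. The VEH libraries were spread widely, and VEH replicate 4 lay just above CCR3 replicate 4. Nr4a1 averaged 54.5% of the VEH mean in CCR3, with a log2 fold change of -0.79 ± 0.22 and a 95% interval from -1.30 to -0.28 (limma adjusted p = 0.0900).

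Nr4a3, or NOR1, was the lowest member. It was read at 2.15, 2.96 and 2.6 FPKM in CCR3, against 4.57, 4.15 and 3.26 FPKM in VEH. Its log2 fold change was -0.48 ± 0.12 (limma adjusted p = 0.0772), and at this level the added 1 FPKM makes the fold change smaller than that of the means, 64.4% of VEH. A pseudocount of 0.1 moved it to -0.61. In the windows of the 3 Nr4a genes TGACG occurred 4 times each. Those of Nr4a1 and Nr4a2 also held the site of Egr proteins, GCGNGGGCG, which 5.55% of all windows hold. The full element TGACGTCA was in none of the 6 members' windows and in 1.79% of all windows. Stretches before the start are shown with TGACG on either strand and, in Nr4a1 and Nr4a2, the Egr site in capitals. In Nr4a2 the letters TATAAA, searched for as a TATA box and held by 13.6% of all windows, are also in capitals. These letters lie on the opposite strand, at bases -164 to -159 relative to the start, and were not tested as a TATA box. The stretches lie at chr15:101266603-101266820 on the plus strand (Nr4a1), chr2:57124059-57124213 on the minus strand (Nr4a2) and chr4:48045064-48045172 on the plus strand (Nr4a3).
Nr4a1: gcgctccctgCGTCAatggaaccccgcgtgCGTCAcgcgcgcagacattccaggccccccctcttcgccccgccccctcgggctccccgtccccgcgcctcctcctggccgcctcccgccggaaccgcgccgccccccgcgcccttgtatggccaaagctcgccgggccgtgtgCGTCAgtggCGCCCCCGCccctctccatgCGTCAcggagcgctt
Nr4a2: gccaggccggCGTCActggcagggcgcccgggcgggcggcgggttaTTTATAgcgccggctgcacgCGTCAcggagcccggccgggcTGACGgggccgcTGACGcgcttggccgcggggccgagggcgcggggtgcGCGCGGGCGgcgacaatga
Nr4a3: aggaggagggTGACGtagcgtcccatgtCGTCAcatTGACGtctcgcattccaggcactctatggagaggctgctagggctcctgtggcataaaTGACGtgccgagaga

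The windows searched also gave no match in any of the 6 members to the AP-1 site TGANTCA (7.81% of all windows), the ETS site CCGGAAG (8.86%) or the Nr4a site AAAGGTCA (1.51%). NF-kB sites were in windows of 3 members, Egr2 (in 1 of its 5 windows), Ier3 and Nr4a1. The share over all windows, 8.46%, counts windows and not genes. The match in Nr4a1 spans the start, from base -3 to 7, and lies outside the stretch shown. A match gives letters in a window and was not tested as a site of binding.

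**Figure D2:**
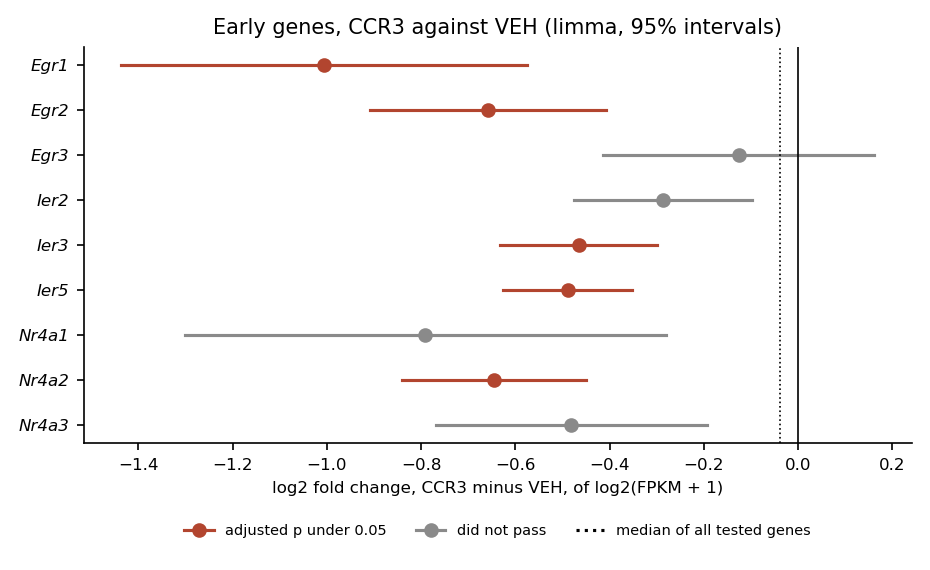
Log2 fold change (CCR3 minus VEH, of log2(FPKM + 1)) of each early gene with its 95% interval from limma. The 5 members with an adjusted p under 0.05 are drawn in red and the other 4 in grey, and the dotted line is the median of all tested genes, -0.04. The interval of Egr3 alone includes 0.

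The members spanned a wide range of levels, which FPKM allows to be compared since it is per length. In CCR3 the order by mean was Ier3 (48.4 FPKM), Ier2 (40.4), Egr3 (22.9), Ier5 (21.7), Nr4a1 (18.9), Egr1 (11.0), Egr2 (4.20), Nr4a2 (4.06) and Nr4a3 (2.57). In VEH it was Ier3 (67.2 FPKM), Ier2 (49.4), Nr4a1 (34.65), Ier5 (30.8), Egr3 (25.1), Egr1 (23.6), Egr2 (7.25), Nr4a2 (6.92) and Nr4a3 (3.99). Neighbours whose ranges over libraries overlapped in CCR3 were Egr3 and Ier5, Ier5 and Nr4a1, and Egr2 and Nr4a2. In VEH they were Ier2 and Nr4a1, Nr4a1 and Ier5, Egr3 and Egr1, and Egr2 and Nr4a2. Ier3 was above the level of 86.7% of tested genes in CCR3 and 90.3% in VEH, and Nr4a3 above that of 13.0% in CCR3 and 20.8% in VEH. Egr1 stood above 50.0% of tested genes in CCR3 and above 72.1% in VEH.

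The libraries of a group differed less for the Ier genes than for Egr1 and Nr4a1. Against the VEH mean of log2(FPKM + 1), the median over the 9 members was -0.58, -0.53 and -0.49 in CCR3 replicates 1, 2 and 4. It was 0.08, 0.08 and -0.19 in VEH replicates 1, 2 and 4. In VEH replicate 4 each of the 9 members lay below the VEH mean, at -0.02 for Ier3 and as low as -0.54 for Nr4a1. In CCR3 replicate 2 Egr3 lay above it, at 0.04, and the other 8 below. The mean over the 3 Nr4a genes was -0.70, -0.65 and -0.57 in the CCR3 libraries and 0.25, 0.03 and -0.29 in the VEH libraries. That over the 3 Ier genes was -0.42, -0.40 and -0.42 in CCR3 and -0.0019, 0.07 and -0.06 in VEH.

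**Figure D3:**
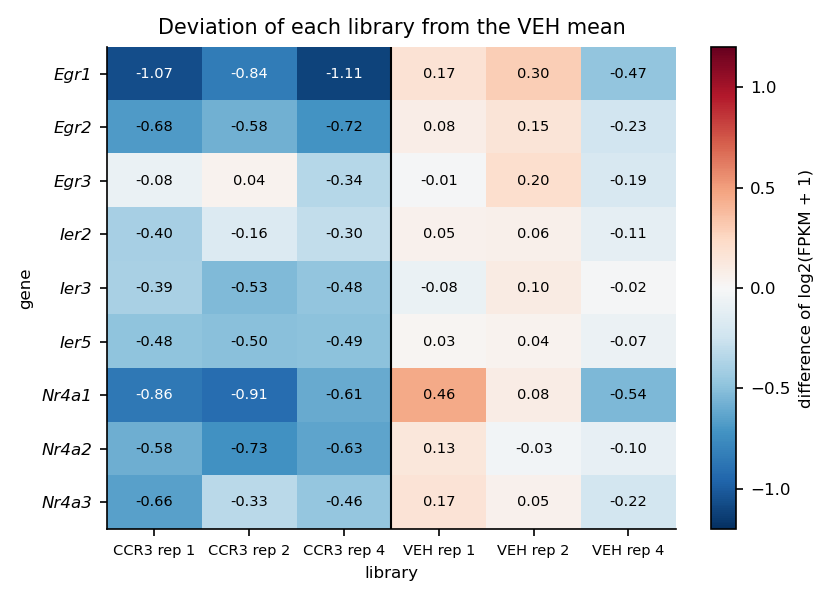
Difference of log2(FPKM + 1) of each library (columns, CCR3 left of the line and VEH right) from the VEH mean of the gene (rows), with the value printed in each cell. The CCR3 columns are negative in every cell but that of Egr3 in replicate 2, and the column of VEH replicate 4 is negative throughout.

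The calls rested on few libraries. Without VEH replicate 1 no member passed, with limma adjusted p-values of 0.135 (Egr1), 0.105 (Egr2), 0.0643 (Ier3), 0.0585 (Ier5) and 0.0561 (Nr4a2). Genes called lower in the whole table, 310 with all 6 libraries, were then 39. They were 64 and 45 without VEH replicates 2 and 4, and 81, 175 and 1087 without CCR3 replicates 1, 2 and 4. Without VEH replicate 2 there were 2 members called, Ier5 and Nr4a2, and without CCR3 replicate 1 there were 3, Ier3, Ier5 and Nr4a2. Without VEH replicate 4 there were again 5: Nr4a1 passed (limma adjusted p = 0.0430, log2 fold change -1.06) and Ier3 did not (0.0817). With no filter on low values, 1 member was called, Ier5. The log2 fold change of all 9 stayed negative without each library in turn.

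Whether members that share a name moved alike was asked from their ratio within each library, which removes what scales both genes. Ier3 was paired with Ier2 and Ier5 by name only. Of 9 pairs that share a name, 3 had ratios that did not overlap between groups. Egr1 over Egr3 was 0.443, 0.483 and 0.516 in CCR3 and 1.05, 0.986 and 0.749 in VEH, a log2 difference of -0.94 ± 0.16 (SE). Egr2 over Egr3 was 0.175, 0.175 and 0.204 in CCR3 and 0.309, 0.281 and 0.275 in VEH, a difference of -0.65 ± 0.09. In every CCR3 library Egr1 and Egr2 were lower relative to Egr3 than in any VEH library. Ier2 over Ier5 was 1.71, 2.04 and 1.85 in CCR3 and 1.63, 1.62 and 1.55 in VEH, a difference of 0.21 ± 0.08. For these 3 pairs the 2-sided exact permutation p was 0.1, the smallest that 3 against 3 libraries allow, or 0.3 after Benjamini-Hochberg adjustment over the 9 pairs. Ratios among the 3 Nr4a genes overlapped between groups, with exact permutation p from 0.4 to 0.9.

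**Figure D4:**
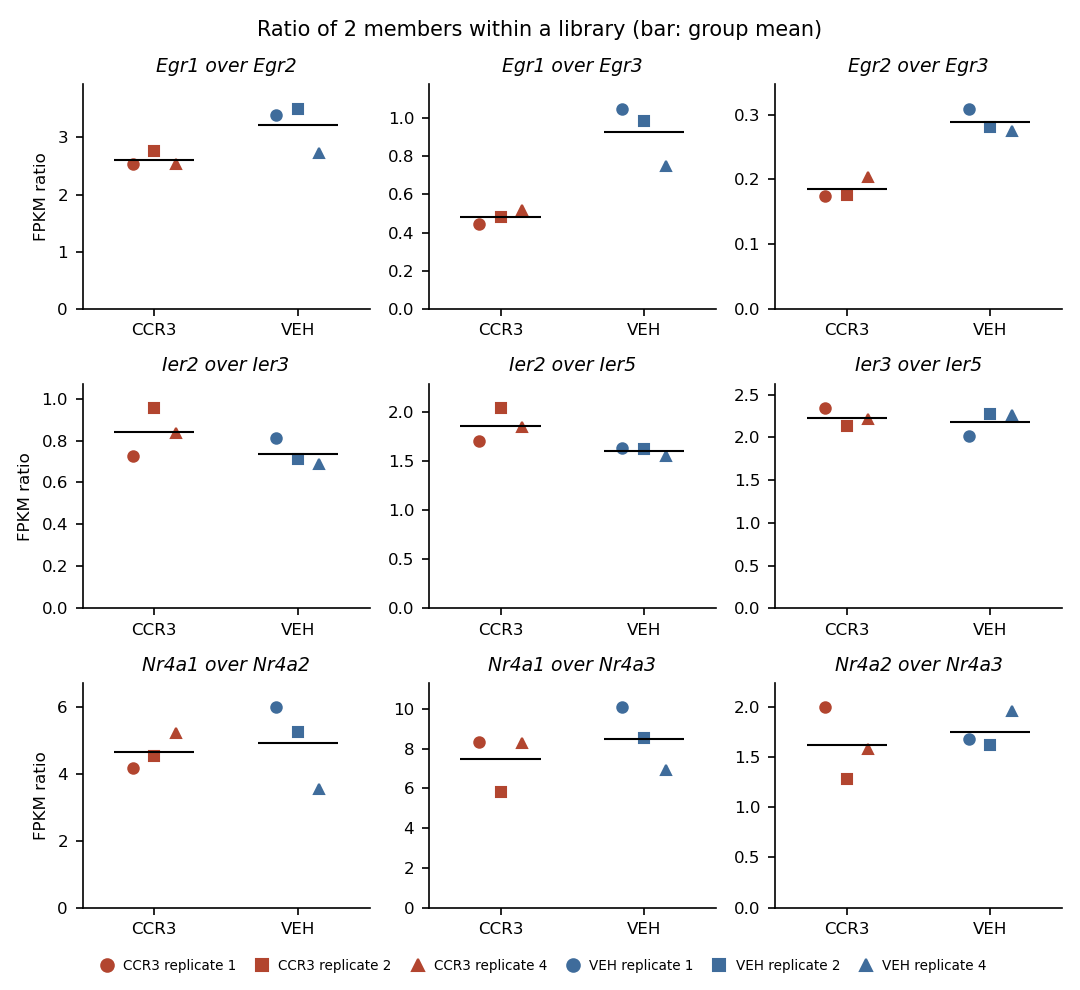
Ratio of FPKM within each library between 2 members that share a name (Egr, Ier or Nr4a), for the 9 such pairs. CCR3 is left and VEH right, with a bar at the group mean. CCR3 and VEH are apart for Egr1 over Egr3, Egr2 over Egr3 and Ier2 over Ier5, and overlap in the other 6 panels.

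Genes that act before and after the members were taken from lists. Of 18 genes for serum response factor, its partners, ERK kinases and CREB, 1 was lower and 1 higher by limma. Srf, the gene of serum response factor, was at 9.29, 10.5 and 11.4 FPKM in CCR3, against 14.8, 15.0 and 14.2 FPKM in VEH, a log2 fold change of -0.47 ± 0.08 (limma adjusted p = 0.0252). Egfr, the receptor of epidermal growth factor, was higher, at 14.8 FPKM in CCR3, against 10.8 FPKM in VEH (limma adjusted p = 0.0443). Of the partners of serum response factor, Elk1 (5.54 FPKM in CCR3, against 5.73 FPKM in VEH) and Elk3 (15.7 and 18.4 FPKM) overlapped between groups. Elk4 was at 6.58 FPKM in CCR3, against 4.56 FPKM in VEH, short of the threshold (limma adjusted p = 0.0542). The median of the list was -0.03. Among the corepressors and partner receptors, Nab2, a corepressor that Egr proteins induce, was lower, at 13.8 FPKM in CCR3, against 18.3 FPKM in VEH (limma adjusted p = 0.0493), while its relative Nab1 did not pass, at 36.7 and 37.3 FPKM.

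Nab2 lost its call under both scalings (limma adjusted p = 0.0647 and 0.0840), and Srf and Egfr under the equal-sum scaling (0.0512 and 0.0610). Each of these 3 lost it without at least 4 of the 6 libraries in turn. Of 11 feedback inhibitors of ERK, 1 was lower by limma and none higher, while 4 were higher and 2 lower when p was left unadjusted, at 0.05. Over all 13063 tested genes, 1049 were higher and 1973 lower at that unadjusted p. Dusp6, a phosphatase that acts on ERK, was at 37.8, 31.5 and 38.2 FPKM in CCR3, against 52.5, 57.1 and 50.1 FPKM in VEH (log2 fold change -0.56 ± 0.09, limma adjusted p = 0.0187), and lost the call without 4 of the 6 libraries in turn (up to 0.0877). Dusp1, a phosphatase of p38 and JNK that glucocorticoids induce, lay on the other side, at 87.5 FPKM in CCR3, against 59.1 FPKM in VEH, short of the threshold (limma adjusted p = 0.0931).

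Other early genes went both ways. Of 26 listed 24 were tested, and 3 were lower (Ptgs2, Phlda1 and Trib1) and 3 higher (Ccn2, Gadd45g and Sgk1) by limma, with a median of -0.16. Ptgs2, the gene of cyclooxygenase 2, had a log2 fold change of -0.64 ± 0.12 and Phlda1 one of -0.49 ± 0.10. Ccn2, which encodes connective tissue growth factor, was at 449.6 FPKM in CCR3, against 261.8 FPKM in VEH (limma adjusted p = 0.00999). Gadd45g, a stress-induced growth arrest gene, was at 25.6 FPKM in CCR3, against 13.0 FPKM in VEH (limma adjusted p = 0.0138). Myc (24.4 and 21.1 FPKM), Btg2 (31.8 and 37.1 FPKM) and Zfp36 (46.7 and 56.9 FPKM in CCR3 and VEH) did not pass, and their groups overlapped. Each of the 6 called genes lost the call without at least 1 library, and the limma adjusted p reached 0.168 for Trib1 without VEH replicate 1.

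Of 10 AP-1 genes, which the members' rule left out, 4 were lower (Atf3, Fosb, Jund and Batf3) and none higher. Jund and Batf3, like Phlda1 and Trib1 above, lost the call under the equal-sum scaling (limma adjusted p = 0.0669, 0.0610, 0.0733 and 0.0826 in this order). Each of the 4 AP-1 calls was lost without at least 1 library: Fosb (limma adjusted p = 0.0545) and Atf3 (0.0503) without CCR3 replicate 1, Jund without 4 of the 6 libraries in turn and Batf3 without 5. Fosb was at 0.38, 0.6 and 0.33 FPKM in CCR3, against 17.91, 9.89 and 3.95 FPKM in VEH, while Fos (19.2 and 32.8 FPKM in CCR3 and VEH, limma adjusted p = 0.0824), Jun (24.6 and 28.8 FPKM) and Junb (164.7 and 197.9 FPKM) did not pass.

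Lists of stress and steroid response were set beside these. None of 9 heat shock genes, such as Hspa1a and Dnajb1, was called by limma or had an unadjusted p under 0.05, and their median was -0.02. Of 10 genes known to be induced by glucocorticoids, which were chosen with their rise in these libraries known, 7 were higher and none lower, with a median of 1.08. Zbtb16, Fkbp5, Pdk4 and Klf15 led them, with log2 fold changes of 2.40, 1.98, 1.56 and 1.66. The list holds 3 genes that are also early genes, Sgk1, Dusp1 and Errfi1, whose log2 fold changes were 0.36, 0.56 and 0.21, and of these Sgk1 was called.

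**Figure D5:**
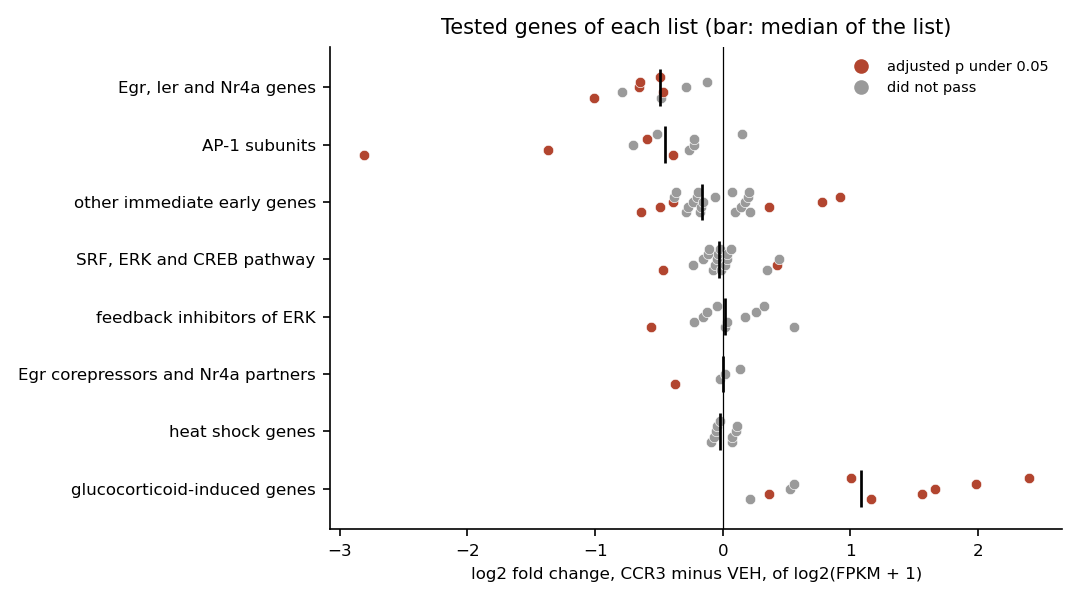
Log2 fold change (CCR3 minus VEH, of log2(FPKM + 1)) of the tested genes of each list, with called genes in red, others in grey and a black bar at the list's median. The members and the AP-1 genes centre at -0.49 and -0.46, the heat shock list at -0.02 and the glucocorticoid list at 1.08.

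The genes most like each called member were those with the smallest root mean square difference of centred log2(FPKM + 1) over the 6 libraries. For Egr1 these were the monocyte chemokine genes Ccl2 (0.125; 33.0 FPKM in CCR3, against 70.0 FPKM in VEH) and Ccl7 (0.155), and Has2 (0.164), a hyaluronan synthase gene. For Egr2 they were Cd180 (0.0605), Nkd1 (0.106) and Cdc42ep3 (0.110), and for Nr4a2 Mex3b (0.0631), Gpr162 (0.0715) and Tbxa2r (0.0733). For Ier3 they were Dusp10 (0.0316), Tmsb10 (0.0372) and Socs5 (0.0387), and for Ier5 Nkd1 (0.0372), Glis2 (0.0501) and Phf11a (0.0531). Gpr162, Tbxa2r, Dusp10 and Phf11a averaged less than 1 FPKM in CCR3, with Tbxa2r at 0.52 FPKM, against 1.37 FPKM in VEH. At such levels the added 1 FPKM makes the fold change smaller than that of the means. Their likeness therefore holds for log2(FPKM + 1) and not for the ratio of the means. The same applies to the likeness of Nkd1 to Ier5. Nkd1 averaged 1.32 FPKM in CCR3, against 2.31 FPKM in VEH, while the CCR3 mean of Ier5 was 70.3% of its VEH mean. For each shared name, with Ier3 among the Ier genes by name only, the centred log2(FPKM + 1) values of the 3 genes were also added. This gives a pattern larger than that of the single genes and so picks genes with larger fold changes. Nearest to the sum of the Egr genes were Ccl2 (0.480), Ccl7 and Atf3, to that of the Ier genes Ccl7 (0.0516), Il1b and Has2, and to that of the Nr4a genes Atf3 (0.381), Fosb and Ccl7. The log2 fold change of Ccl7 was -1.18, further from 0 than that of any member.

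Summed markers of T cells, eosinophils, and mast cells with basophils were lower in each CCR3 library than in each VEH library. The summed level of 6 T cell markers was 25.1 to 33.4 FPKM in CCR3, against 41.8 to 44.5 FPKM in VEH, with Cd3g and Cd4 lower among 6 tested. Eosinophil markers summed to 16.1 to 21.0 FPKM in CCR3, against 27.4 to 35.6 FPKM in VEH, with Ear2 lower among 4 tested. Ear2, with the highest mean of these, was at 7.24 FPKM in CCR3, against 15.9 FPKM in VEH. Siglecf overlapped between groups (3.61 and 3.90 FPKM in CCR3 and VEH). Ccr3 (3.92 and 5.76 FPKM) and Prg2 (3.86 and 6.36 FPKM) did not overlap but were not called. The defining marker Epx was near 0, at 0.04 FPKM in each CCR3 library and at 0.02, 0 and 0 FPKM in VEH. Mast cell and basophil markers summed to 508.8 to 600.7 FPKM in CCR3, against 616.5 to 860.7 FPKM in VEH, with none of 7 called by limma and 6 lower at an unadjusted p under 0.05. Macrophage and monocyte markers overlapped, at 1550 to 1888 FPKM in CCR3, against 1846 to 2122 FPKM in VEH, with none of 8 called by limma and 1 in each direction at an unadjusted p under 0.05. Neutrophil markers were at 2913 to 4241 FPKM in CCR3, against 2589 to 3410 FPKM in VEH, with none of 7 called by limma and 2 higher at an unadjusted p under 0.05. Beside these counts, 1973 of all 13063 tested genes were lower and 1049 higher at that unadjusted p. Fibroblast, endothelial and muscle markers overlapped between groups in their sums, and 1 gene among them, the endothelial Kdr, was lower. Cd3g, Cd4, Ear2 and Kdr each lost the call without at least 4 of the 6 libraries in turn. With median-centred values and with the equal-sum scaling, Ear2 (limma adjusted p = 0.0521 and 0.0548) and Kdr (0.0501 and 0.0847) lost it as well, and Cd4 under the equal-sum scaling (0.0507). What part these cells have in the members' levels was not tested.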

How the data were processed

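RNA of 6 skin libraries was purified on oligo(dT) beads and read as single-end reads, per the labels' protocols. The submitters' processing notes name HISAT, with no version. No source used here gives the build, annotation, counting tool or strand setting, so reads of overlapping genes were not separable here. FPKM values, rounded to 2 decimals, were deposited by the authors as 1 table. It holds no counts, and no read number was recovered. Among 156 low values, 13.5% came within 0.05 of a multiple of the lowest value of their gene, beside 10% by chance. The values compared come from libraries of unknown depth, so these shares cannot show whether whole reads lie under the values.

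Libraries were grouped by title. Values were taken as log2(FPKM + 1), 5761 genes under the filter were left out, and limma 3.58.1 (R 4.3.3) was fitted to all 13063 others with a variance trend, 2-sided, with no replicate block. Symbols that had become dates (25) were renamed by Entrez number. Members and lists were chosen with earlier results of these data known. Named were all members, up to 4 called genes of each list, listed regulators fixed by name, and the 3 genes most like each called member. Other genes named were chosen after their values were seen. The fit was tested on data simulated with independent normal noise, which checks the code and not the assumptions of the fit. Promoters and plots were made in Python 3.11.15 with matplotlib 3.10.9. Alternatives were 2 scalings, other filters, a pseudocount of 0.1, a replicate block, variance models, other thresholds and each library left out.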

Additional observations from a re-analysis of the deposited data

How the results depend on the processing

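Depth is unknown, so no precision from counting can be given, and FPKM is relative to all other transcripts. For members lower in CCR3 the count of 5 was 1 with no filter, 8 at an adjusted p under 0.1 and 1 with a fold change of at least 2, and 0 to 5 without each library in turn; none was called higher under any of these alternatives. Genes called lower in CCR3 (310) were 173 with libraries scaled to the same sum, 50 with no filter, 759 at an adjusted p under 0.1 and 21 with a fold change of at least 2, and 39 to 1087 without each library. Genes called higher in CCR3 (178) were 42 with no filter, 403 at an adjusted p under 0.1, 16 with a fold change of at least 2, and 29 to 551 without each library. Of the pathway list genes, 10 were lower, with 4 under the equal-sum scaling, none (0) with no filter and 1 to 11 without each library, and 10 were higher, with 6 with no filter and 6 to 9 without each library. The cause of these moves was not tested. With the replicate block, 4 members were lower (Ier3 was not, with a limma adjusted p of 0.0571), and 144 genes were lower and 89 higher. Deviations of same-numbered libraries from their group means correlated at -0.06, 0.08 and -0.03 across genes for numbers 1, 2 and 4. For libraries of different numbers the correlations ran from -0.08 to 0.14. The labels give no pairing, and such correlations cannot show whether same-numbered libraries share anything beyond the number. CCR3 replicate 2 alone correlated best with its own number. Among alternative values of single members none changed sign, 109 stayed on the same side of the threshold, 16 lost the call and 1 gained it.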
